A study of Mus musculus with 31 samples.

Results

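The genes of inositol trisphosphate (IP3) receptors and of store-operated calcium entry were followed in the lactating mouse mammary gland: the receptors *Itpr1*, *Itpr2* and *Itpr3*, the calcium sensors *Stim1* and *Stim2*, the channels *Orai1*, *Orai2* and *Orai3*, and the calcium-permeable channels *Trpv4* and *Trpv6*. These 10 genes were chosen by what their products do, with earlier results of these data known, out of 55379 genes in the count tables. All 10 had enough counts for a test, as did 14362 genes in all. Mammary glands came from 31 female C57BL/6J dams, aged 6 weeks at breeding, on lactation day 10. From 2 weeks before mating the dams were fed a breeder diet with 4 mg/kg folic acid (FA) or an FA diet with 24 mg/kg. From embryonic day 13 they were given saline or 20 mg/kg of fluoxetine per day, a selective serotonin reuptake inhibitor. By the sample labels 8 dams received FA diet + fluoxetine, 7 dams breeder diet + fluoxetine, and 8 dams of each diet received saline, each dam giving 1 library. Both diets held FA, so no group was without it.

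When a hormone or serotonin binds a receptor that signals through Gq proteins, phospholipase C makes IP3, and IP3 opens the IP3 receptors, the release channels of the endoplasmic reticulum. The STIM proteins sense the fall of calcium in that store, move to the plasma membrane and open the ORAI channels, through which calcium flows in and the store is refilled. In the secretory epithelium calcium entering from the blood side has to be pumped on into milk, and store-operated entry is one of the routes considered for this, while *Trpv6* and *Trpv4* code for channels of the plasma membrane that let calcium in without a store signal.

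The members of these families are related but can be told apart by sequencing reads. In GENCODE coding sequences the IP3 receptors share from 70.14% (*Itpr1* with *Itpr3*) to 71.81% (*Itpr1* with *Itpr2*) of aligned bases. The ORAI genes share from 73.02% to 73.47%, *Stim1* and *Stim2* share 64.6%, and *Trpv4* and *Trpv6* share 62.77%. The stretches below are the longest runs that are the same in both genes, shown because they are the places where reads of a family are hardest to assign. Capitals mark the shared run and lower case the neighbouring coding bases, all 5′ to 3′ on the coding strand of GRCm39. The first pair lies at chr6:146088961-146089040 (minus strand, *Itpr2*) and chr17:27335169-27335248 (plus strand, *Itpr3*), each within 1 coding exon, and shares 32 bases. The pair of STIM genes lies at chr7:102070647-102070709 and chr5:54262650-54262712, both on the plus strand and within 1 coding exon, and shares 15 bases. The runs of *Orai2* and *Orai3* (29 bases) and of *Trpv4* and *Trpv6* (18 bases) are given in spliced coding sequence, since the printed stretches cross an exon border.
Itpr2: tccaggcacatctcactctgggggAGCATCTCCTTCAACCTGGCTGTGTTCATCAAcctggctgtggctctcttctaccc
Itpr3: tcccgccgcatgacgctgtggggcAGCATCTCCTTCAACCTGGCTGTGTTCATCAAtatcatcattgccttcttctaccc
Stim1: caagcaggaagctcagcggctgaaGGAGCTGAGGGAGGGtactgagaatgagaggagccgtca
Stim2: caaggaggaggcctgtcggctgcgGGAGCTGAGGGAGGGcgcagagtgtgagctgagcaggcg
Orai2: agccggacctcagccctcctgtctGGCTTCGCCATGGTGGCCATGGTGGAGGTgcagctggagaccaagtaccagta
Orai3: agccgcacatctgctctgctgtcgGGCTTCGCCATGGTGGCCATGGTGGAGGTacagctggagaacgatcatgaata
Trpv4: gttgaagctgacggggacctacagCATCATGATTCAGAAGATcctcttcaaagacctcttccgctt
Trpv6: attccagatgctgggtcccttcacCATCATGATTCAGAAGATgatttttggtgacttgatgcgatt
The shortest reads kept after trimming were 50 bases long, and no stretch of 50 bases occurred in transcripts of more than 1 of the 10 genes. Shared sequence with other genes was found mainly in *Trpv6*, where 23.9% of the 50-base stretches also occur on the opposite strand of *Ephb6*, a neighbour with 28.2% of the exonic bases of *Trpv6* in common. In *Itpr3* the share was 5.83%, most of it in *Uqcc2*, whose exons overlap those of *Itpr3*, and *Itpr3os*. Whether reads were counted by strand is not given in the sources used here, so reads of these overlapping stretches cannot be told apart, and the counts of *Trpv6* are the least certain of the 10.

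Total counts per dam lay between 15412542 and 36000439, and values are given as CPM, counts scaled to the size of each library, after TMM normalization. A library of the FA diet + fluoxetine group, dam 3, stood apart from the other 30. Its TMM factor was 3.04, against 0.716 to 1.57 in the others, and the 20 most abundant genes of the series took 39.3% of its counts against at least 60.5%. The summed level of 6 luminal secretory markers was 29211 CPM in it and 161671 to 502532 CPM in the other dams, with no marker of the list at 0 in all dams of a treatment. It also held the highest sums of leukocyte markers (52.0 CPM), fibroblast markers (937 CPM), adipocyte markers (873 CPM) and pericyte markers (65.5 CPM, with the next dam at 58.8 CPM). Results that rest on this dam are given with and without it. In whole tissue, a lower share of a cell type and less RNA per cell cannot be told apart.

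The members fell into an order of levels. To compare genes, CPM were divided by the length of the union of their exons in kilobases, and medians of the 8 breeder diet + saline dams are given. *Orai1* (ENSMUSG00000049686, chr5:123153043-123168535), the pore subunit of the store-operated channel, led with 25 CPM per kb, a level above that of 97.5% of the genes tested. *Stim2* (ENSMUSG00000039156, chr5:54155778-54278399), the sensor that answers to small falls of store calcium, followed with 8.46 CPM per kb. *Orai3* (ENSMUSG00000043964, chr7:127368982-127374330) stood at 2.59 and *Itpr3* (ENSMUSG00000042644, chr17:27275971-27343866) at 2.03 CPM per kb. The first 2 genes were separated in every dam of the group from the gene below them, and *Itpr3* from *Itpr2* likewise, whereas the ranges of *Orai3* and *Itpr3* overlapped.

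The lower members were not separated from their neighbours. *Itpr2* (ENSMUSG00000030287, chr6:146009797-146403721) had a median of 0.644 CPM per kb, *Stim1* (ENSMUSG00000030987, chr7:101916979-102086526) of 0.484 and *Itpr1* (ENSMUSG00000030102, chr6:108190048-108528070) of 0.454. *Trpv4* (ENSMUSG00000014158, chr5:114760209-114796914) stood at 0.246, *Trpv6* (ENSMUSG00000029868, chr6:41597558-41613343) at 0.0614 and *Orai2* (ENSMUSG00000039747, chr5:136176310-136200044) at 0.0459 CPM per kb, which is above 2.72% of the genes tested. From *Itpr2* to *Orai2* each gene's range over the 8 dams overlapped that of the next gene. With the length of the longest transcript in place of the union of exons, *Stim1* (1.13 CPM per kb) came before *Itpr2* (0.881 CPM per kb), and no other rank changed.

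**Figure D1:**
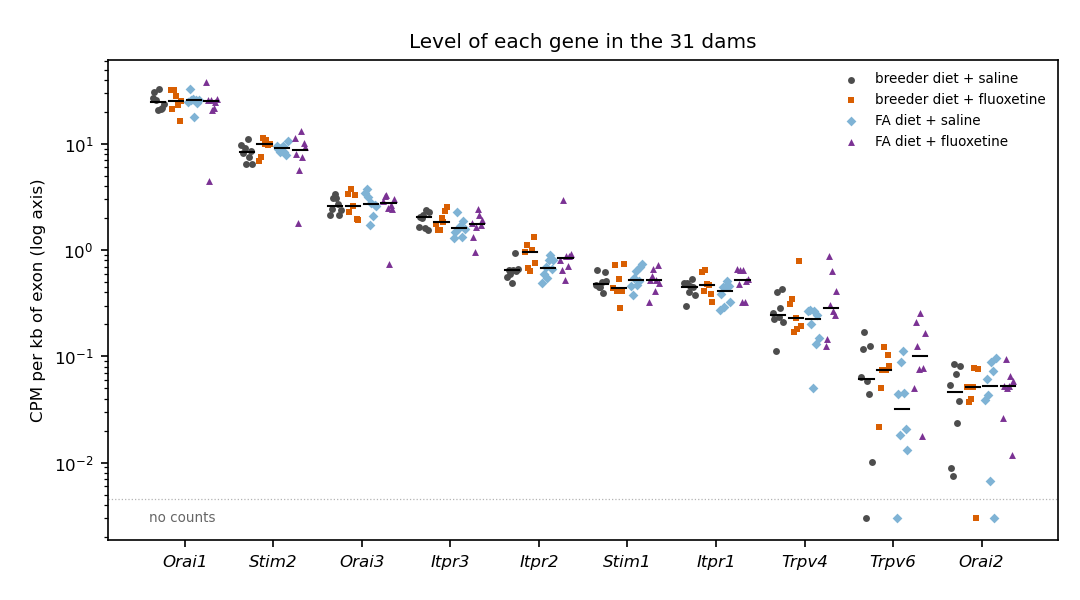
Level of the 10 genes in CPM per kb of exon (log axis) in each of the 31 dams, with the 4 groups side by side for each gene; bars are group medians, and points under the dotted line had no counts. *Orai1* and *Stim2* have the highest medians in all groups, and dam 3 of FA diet + fluoxetine gives the lowest point of both.

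The ORAI and STIM families were each carried mainly by 1 member. *Orai1* made up a median of 90.2% of the summed ORAI level per kb over the 31 dams (lowest 56.7%, highest 96.3%), and the lowest share was that of FA diet + fluoxetine dam 3, since it was at least 85.7% in the other 30. *Orai3* held a median of 9.71% and *Orai2* of 0.169%. *Stim2* made up 94.0% of the STIM level (lowest 75.8%, and at least 89.4% without that dam), so *Stim1*, the sensor with the stronger hold on ORAI channels, gave the smaller share. The IP3 receptors were more evenly divided. In the 16 saline dams *Itpr3* held a median of 62.2% (48.7% to 70.5%), *Itpr2* of 22.8% (16.3% to 32.8%) and *Itpr1* of 14.6% (9.93% to 18.5%). In the 15 fluoxetine treated dams the medians were 55.6%, 26.8% and 15.5%, and without dam 3 they were 56.3%, 25.8% and 15.6%. The ranges of the 2 treatments overlapped for each receptor, and the shares were not tested. The shares also depend on the length used: with the longest transcript, the saline medians were 51.5% for *Itpr3*, 26.1% for *Itpr2* and 22.3% for *Itpr1*, those with fluoxetine 45.2%, 28.9% and 23.5%, and *Stim2* and *Orai1* held medians of 87.7% and 91.3% over the 31 dams.

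The fluoxetine comparison asked whether peripartum SSRI exposure moved the calcium release and entry machinery. No member passed the FDR of 10% (edgeR's quasi-likelihood test, Benjamini-Hochberg over 14362 genes), as against 3 of all genes tested, a background of 0.0209%. At an unadjusted p of 0.05 or below, 3 of 10 members were higher with fluoxetine (*Itpr2*, *Trpv4* and *Itpr1*) and 0 were lower. Of all 14362 genes tested 9.92% reached that p, 997 of them higher and 428 lower, so the genes at that p leaned to higher values as well. By the likelihood ratio test the counts over members were 0 and 3 as well, beside 45 of all genes tested at the FDR (0.313%) and 9.91% at that p. By DESeq2 they were again 0 and 3, beside 70 genes at the FDR (0.487%) and 10.9% at that p. The median log2 fold change of the 10 members was 0.04, beside 0.02 over all genes tested. The count at the unadjusted p was 1, with *Itpr2* alone, when any 1 of 7 dams was left out: FA diet + fluoxetine dam 3, 5 or 12, FA diet + saline dam 4 or 12, or breeder diet + saline dam 2 or 12. Without FA diet + fluoxetine dam 3, 743 of all 14247 genes tested were higher and 569 lower at that p.

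Among the IP3 receptors, *Itpr2*, the receptor most sensitive to IP3, showed the clearest difference. In the breeder diet its lowest value, median and highest value were 8.01, 10.4 and 15.1 CPM with saline, and 10.3, 15.5 and 21.6 CPM with fluoxetine. In the FA diet they were 7.86, 11.01 and 14.5 CPM with saline, and 8.38, 13.6 and 48.3 CPM with fluoxetine. In the breeder diet 4 of 7 fluoxetine treated dams lay above every saline dam, in the FA diet 2 of 8 did, and the ranges overlapped in both diets. In all, 12 of 15 fluoxetine treated dams exceeded the saline median of their diet, a number that 7.18% of the genes tested reached or passed. The log2 fold change over both diets was 0.56 (SE 0.18, 95% interval 0.20 to 0.92, unadjusted p = 0.00302, adjusted p = 0.325).

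A single dam set much of the size of that difference. Without FA diet + fluoxetine dam 3, which had 48.3 CPM where the next dam of its group had 14.96, the log2 fold change of *Itpr2* was 0.33 (SE 0.11, unadjusted p = 0.00696, adjusted p = 0.407). With sample quality weights, which count such a library less, it was 0.34 (unadjusted p = 0.00405, adjusted p = 0.198). Over the 9 alternatives to the test, filter and scaling, the adjusted p of *Itpr2* lay between 0.177 and 0.620. Its biological coefficient of variation was 0.340, against a median of 0.229 in the 500 genes nearest to it in level.

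*Itpr1*, the receptor best known from neurons and smooth muscle, differed less. In the breeder diet the lowest, median and highest values were 5.48, 8.31 and 9.77 CPM with saline, and 5.98, 8.65 and 11.8 CPM with fluoxetine. In the FA diet they were 4.98, 7.60 and 9.30 CPM with saline, and 5.93, 9.60 and 12.1 CPM with fluoxetine. In the FA diet 5 of 8 fluoxetine treated dams exceeded all saline dams, in the breeder diet 2 of 7 did. Over both diets 10 of 15 exceeded the saline median of their diet, a number that 24.3% of the genes tested reached or passed. The log2 fold change over both diets was 0.26 (SE 0.12, unadjusted p = 0.0420, adjusted p = 0.490), and 0.22 (unadjusted p = 0.0796, adjusted p = 0.582) without dam 3. *Itpr3*, the main receptor of secretory epithelia and the most abundant here, ranged from 15.8 to 28.8 CPM with saline and from 11.5 to 30.6 CPM with fluoxetine. Its log2 fold change was 0.03 (95% interval -0.19 to 0.26, unadjusted p = 0.754).

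**Figure D2:**
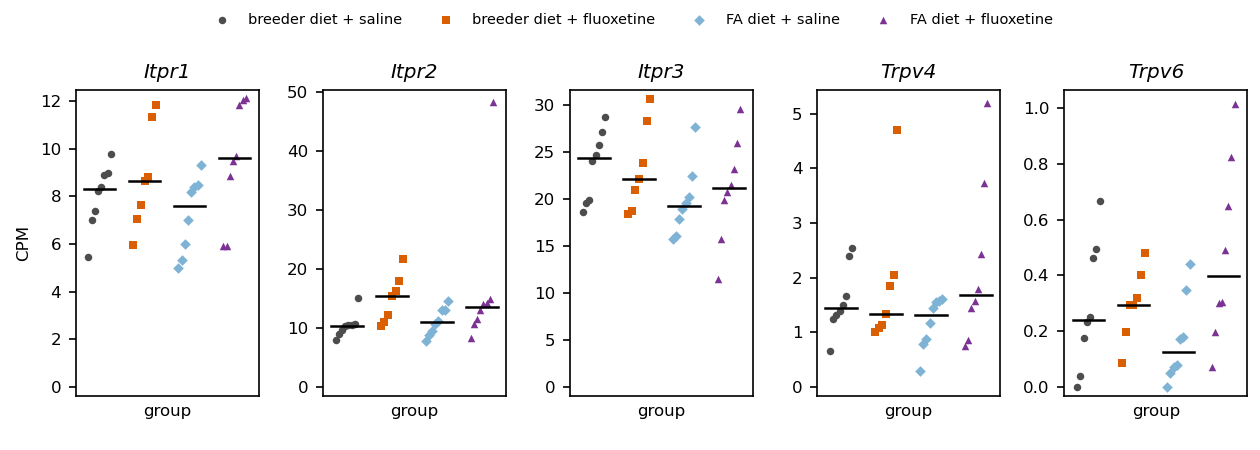
CPM (linear axis) of the 3 IP3 receptors, *Trpv4* and *Trpv6* in every dam of the 4 groups, with bars at the group medians; each panel has its own scale. The *Itpr2* panel shows the point of 48.3 CPM from FA diet + fluoxetine dam 3 above all others, and the groups overlap in every panel.

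The store sensors and the store-operated channels showed no difference beyond their error between treatments. *Stim1* ranged from 3.91 to 7.68 CPM with saline and from 2.98 to 7.63 CPM with fluoxetine, and its log2 fold change was -0.03 (95% interval -0.30 to 0.24). *Stim2* ranged from 33.5 to 57.9 CPM with saline and from 9.26 to 68.9 CPM with fluoxetine, with a log2 fold change of 0.03 (95% interval -0.28 to 0.34). *Orai1* had a median of 67.7 CPM with saline and 66.6 CPM with fluoxetine, and a log2 fold change of -0.06 (95% interval -0.38 to 0.26). Its range with fluoxetine was 11.8 to 101 CPM, and 42.6 to 101 CPM without dam 3. *Orai3*, a channel subunit that joins *Orai1* in mixed channels, had medians of 6.58 and 6.56 CPM and a log2 fold change of -0.03 (95% interval -0.33 to 0.27). For these 4 genes the outermost bounds of the intervals were a 0.769-fold level (*Orai1*) and a 1.26-fold level (*Stim2*), so smaller changes in either direction could not be told from none.

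*Orai2* was too low for a firm statement. It had from 0 to 40 counts per dam, and its log2 fold change of 0.04 had a 95% interval from -0.80 to 0.89. A dam of breeder diet + fluoxetine and a dam of FA diet + saline had no count for it, which allows a level of up to 0.202 and 0.243 CPM there. Leaving out dam 3, the signs of *Orai1* (0.01) and *Orai2* (-0.06) turned, and the log2 fold changes of *Stim1* (-0.04), *Stim2* (0.09) and *Orai3* (-0.07) stayed small.

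The TRPV genes were low, and neither passed the FDR. *Trpv4*, a channel opened by swelling and warmth, had a lowest value of 0.666, a median of 1.45 and a highest of 2.54 CPM on the breeder diet with saline, and 1.01, 1.34 and 4.70 CPM with fluoxetine. On the FA diet the values were 0.299, 1.32 and 1.61 CPM with saline, and 0.745, 1.69 and 5.19 CPM with fluoxetine. In the FA diet 4 of 8 fluoxetine treated dams lay above every saline dam, whereas in the breeder diet 1 of 7 did. Over both diets 9 of 15 exceeded the saline median of their diet, a number that 36.1% of the genes tested reached or passed. The log2 fold change over both diets was 0.58 (SE 0.27, unadjusted p = 0.0410, adjusted p = 0.489). It was 0.41 (unadjusted p = 0.116) without FA diet + fluoxetine dam 3 and 0.37 (unadjusted p = 0.162) without breeder diet + fluoxetine dam 9, the highest values of their groups, and 0.33 (unadjusted p = 0.174) with sample quality weights.

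*Trpv6*, the calcium-selective channel of absorbing epithelia, had from 0 to 31 counts per dam. In the breeder diet its median was 0.242 CPM with saline and 0.296 CPM with fluoxetine, and in the FA diet 0.127 and 0.398 CPM. With FA diet + fluoxetine the values ran from 0.0702 to 1.01 CPM, and 4 of 8 dams exceeded the highest FA diet + saline dam (0.440 CPM). A saline dam of each diet had no count, which allows up to 0.172 CPM in the breeder diet dam and 0.147 CPM in the FA diet dam. The log2 fold change over both diets was 0.75 (SE 0.45, 95% interval -0.17 to 1.67, unadjusted p = 0.105, adjusted p = 0.583), with 12 of 15 fluoxetine treated dams above the saline median of their diet. *Ephb6*, whose exons overlap those of *Trpv6*, had a log2 fold change of -0.06 (SE 0.18) in the same comparison, and *Uqcc2*, which overlaps *Itpr3*, one of 0.08 (SE 0.13). Within the diets *Ephb6* had -0.29 (SE 0.26) in the breeder diet and 0.16 (SE 0.25) in the FA diet. Its difference between diets was 0.45 (SE 0.35), and the part of *Ephb6* reads in the *Trpv6* counts was not tested.

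**Figure D3:**
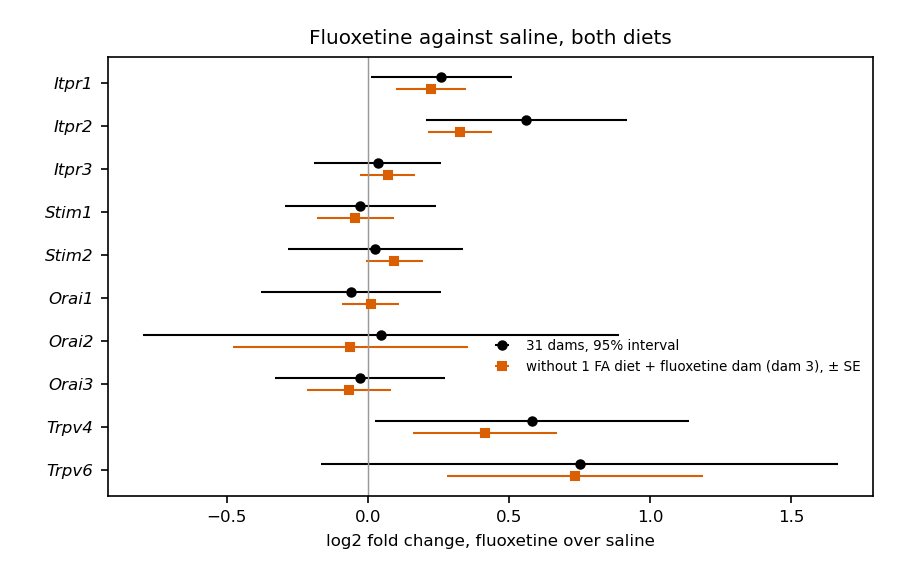
Log2 fold change of fluoxetine over saline for the 10 genes across both diets. Circles with bars are estimates from all 31 dams with 95% intervals, squares with bars are estimates ± SE without FA diet + fluoxetine dam 3, and the intervals of *Itpr2*, *Itpr1* and *Trpv4* exclude 0 with all dams.

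Cell type markers moved beside these values. Of 6 myoepithelial markers 3 were lower with fluoxetine at an unadjusted p of 0.05 or below (*Acta2*, -0.38, *Myh11*, -0.32, and *Cnn1*, -0.28 in log2), and 0 were higher. The summed level of that list ran from 350 to 614 CPM with saline and from 216 to 535 CPM with fluoxetine. Without dam 3, 5 of 6 fibroblast markers were lower at that p, with a median log2 fold change of -0.49, whereas with all dams 0 of 6 were. No gene of either list was at 0 in all dams of a treatment. Of the other lists, 1 of 6 luminal, 1 of 6 adipocyte, 1 of 6 endothelial and 1 of 6 pericyte markers were higher at that p with all dams, and 0 of 5 leukocyte, 0 of 2 tested neutrophil and 0 of 6 skeletal muscle markers changed at it. Across the 31 dams, after the group means were taken off, 7 pairs of a member and a marker sum had a Spearman coefficient beyond 0.4 in size. *Orai2* went with the pericyte sum (0.59, and 0.55 without dam 3) and *Trpv4* with the myoepithelial sum (0.48, and 0.40). *Stim1* went with the skeletal muscle sum (0.43, and 0.49) and against the luminal sum (-0.48, and -0.58). With the TMM factor of the libraries, which is not among the 7 pairs, *Stim1* had a coefficient of similar size (0.45, and 0.53). *Stim2* went with the luminal sum (0.42, and 0.17) and against the pericyte sum (-0.43, and -0.36), and *Orai3* against the skeletal muscle sum (-0.49, and -0.41). Other pairs passed 0.4 in size only without dam 3, and their values with all dams come first here. *Orai1* went against the neutrophil (-0.33, and -0.45), endothelial (-0.34, and -0.45) and myoepithelial sums (-0.36, and -0.41). *Stim2* went against the endothelial sum (-0.37, and -0.45). *Itpr1* went against the fibroblast sum (-0.26, and -0.44) and *Itpr3* with the adipocyte sum (0.20, and 0.43). The skeletal muscle sum ran from 0.651 to 5771 CPM over the dams. *Itpr2* and the myoepithelial sum had a coefficient of -0.01. The part of cell type shares in the differences of the 10 genes was not tested.

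The comparison within each diet asked whether FA changed the response to fluoxetine. In the breeder diet 0 of 10 members passed the FDR and 0 of 10 reached an unadjusted p of 0.05, with backgrounds of 0% and 4.39% of all genes tested. *Itpr2* was closest, with a log2 fold change of 0.51 (SE 0.25, unadjusted p = 0.0505). In the FA diet 0 of 10 passed the FDR (background 0%), and 4 of 10 were higher at the unadjusted p (background 9.98%). They were *Itpr2* with 0.61 (unadjusted p = 0.0174, adjusted p = 0.437 by edgeR), *Itpr1* with 0.40 (unadjusted p = 0.0270), *Trpv4* with 0.94 (unadjusted p = 0.0194) and *Trpv6* with 1.47 (unadjusted p = 0.0261). Without dam 3 the count was 1, *Trpv6* with 1.45 (unadjusted p = 0.0311), and without dam 5 of that group, the highest in *Trpv6*, it was 1 as well, *Itpr2*. The background fell too without dam 3. In the FA diet 428 of 14247 genes tested were then higher and 442 lower at that p. With all dams 1076 of 14362 were higher and 358 lower.

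The responses in the 2 diets were not shown to differ. The interaction had 0 of 10 members past the FDR (background 0%) and 0 of 10 at an unadjusted p of 0.05 or below (background 3.84%). The largest difference between diets was that of *Trpv6*, 1.45 (SE 0.90, 95% interval -0.39 to 3.29, unadjusted p = 0.118). For *Trpv4* it was 0.71 (unadjusted p = 0.201), and 1.11 (unadjusted p = 0.0402, adjusted p = 0.955) without breeder diet + fluoxetine dam 9, the dam with 4.70 CPM. The difference was 0.27 for *Itpr1* (unadjusted p = 0.278) and 0.10 for *Itpr3* (unadjusted p = 0.654). For *Itpr2* it was 0.10 with all dams (unadjusted p = 0.781) and -0.37 without dam 3 (unadjusted p = 0.113). Without that dam the *Itpr2* fold change in log2 was 0.51 in the breeder diet (unadjusted p = 0.00309, adjusted p = 0.733) and 0.14 in the FA diet (unadjusted p = 0.387).

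With FA supplementation none of the 10 genes differed beyond the error. In the comparison of 16 FA diet with 15 breeder diet dams, 0 of 10 members passed the FDR (background 0%) and 0 of 10 reached an unadjusted p of 0.05 (background 5.08%). The smallest p was that of *Itpr3*, whose level ran from 18.5 to 30.6 CPM in the breeder diet (median 23.8) and from 11.5 to 29.6 CPM in the FA diet (median 20.1). The ranges overlapped, and the log2 fold change was -0.20 (SE 0.11, 95% interval -0.42 to 0.03, unadjusted p = 0.0804, adjusted p = 0.933), or -0.16 without dam 3. Leaving out FA diet + fluoxetine dam 5 or FA diet + saline dam 3 gave -0.24 in both cases, with an unadjusted p of 0.0338 and 0.0334. The log2 fold changes of the other 9 genes lay between -0.09 (*Trpv4*) and 0.13 (*Itpr2* and *Orai2*). That of *Itpr2* was -0.09 without dam 3, and that of *Trpv4* was 0.10 without breeder diet + fluoxetine dam 9. The median over the 10 members was -0.02, beside 0.02 over all genes tested.

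The other genes of the pathway were divided between higher and lower values. Of 120 genes in 10 lists, 97 had enough counts, and for fluoxetine 0 passed the FDR, 4 were higher and 4 were lower at an unadjusted p of 0.05 or below. These are 8.25% of the 97, near the 9.92% of all genes tested, and 39.2% of the 97 had a log2 fold change above 0, against 53.5% of all genes tested. Their median log2 fold change was -0.06, beside 0.02 over all genes tested. Without dam 3, with 96 tested, 3 were higher and 6 lower at that p, with a median of -0.07. In that fit 743 of all 14247 genes tested were higher and 569 lower at it, with a median of -0.007. Upstream of the receptors, 10 of 16 Gq-coupled receptors and Gq subunits were measured well enough, and 0 of them reached that p. The Gq-coupled serotonin receptors *Htr2a*, *Htr2b* and *Htr2c* had 29, 4 and 0 counts in all 31 libraries, and the calcium-sensing receptor *Casr* had 38, so that none of these was tested. Of 11 phospholipase C genes *Plcd1* reached the p (log2 fold change 0.66, unadjusted p = 0.0202, and 0.38, unadjusted p = 0.106, without dam 3). Of 7 genes of IP3 breakdown *Inpp1*, an inositol phosphatase, did so (0.47, unadjusted p = 0.0182, and 0.33, unadjusted p = 0.0610, without dam 3).

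Among 18 regulators of the IP3 receptors, *Ahcyl2* was lower with fluoxetine. It codes for a protein of the IRBIT family, named for a protein that competes with IP3 at the receptors, and ran from 11.3 to 35.4 CPM with saline (median 20.8) and from 6.91 to 23.3 CPM with fluoxetine (median 15.1). Its log2 fold change was -0.40 (unadjusted p = 0.0120, adjusted p = 0.409), and FA gave -0.34 in the same gene (unadjusted p = 0.0314, adjusted p = 0.933). Among 10 regulators of store-operated entry *Cracr2b*, an ORAI partner, was higher (0.20, unadjusted p = 0.0422), and without dam 3 *Stimate*, an endoplasmic reticulum protein that helps STIM reach the plasma membrane, was higher as well (0.28, unadjusted p = 0.00232, against 0.23, unadjusted p = 0.0720, with all dams). Among 10 genes of store refilling and other release, *Atp2a2*, the SERCA pump that refills the store, was lower (-0.29, unadjusted p = 0.00998). Its median was 34.7 CPM with saline and 29.7 CPM with fluoxetine, and the ranges, 28.1 to 51.8 and 23.1 to 46.5 CPM, overlapped.

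Downstream, the calcineurin subunits went in opposite directions: *Ppp3ca* had a log2 fold change of 0.38 (unadjusted p = 0.00776) and *Ppp3cc* of -0.43 (unadjusted p = 0.00911) among 14 genes of calcineurin and NFAT. The mitochondrial gate *Micu2* was lower (-0.27, unadjusted p = 0.00449, adjusted p = 0.357), with medians of 9.24 CPM with saline and 7.86 CPM with fluoxetine. With all dams, none of the 5 measured TRPC and other TRP channels and none of the 5 measured plasma membrane and Golgi pumps, among them *Atp2b2*, the pump that carries calcium into milk (-0.16, SE 0.21), reached the p. Without dam 3, *Atp2b1*, a pump of the same family, did (-0.23, unadjusted p = 0.0377). For FA, 3 of the 97 genes were higher (among them *Cav1*, 0.33, and *Oxtr*, the oxytocin receptor, 0.35) and 3 lower (*Slc8b1*, the mitochondrial sodium-calcium exchanger, -0.45, *Ahcyl2*, -0.34, and *Trpm4*, -0.22) at an unadjusted p of 0.05 or below, which is 6.19% of them and near the 5.08% of all genes tested, and 0 passed the FDR. Without dam 3, 5 of 96 pathway genes were higher and 4 lower with FA at that p, beside 518 higher and 478 lower of the 14247 genes tested. In that fit the log2 fold changes of *Cav1* and *Oxtr* were 0.28 (unadjusted p = 0.00282) and 0.36 (unadjusted p = 0.0152). Markers of 2 cell types moved beside these values. With FA, 2 of 6 myoepithelial markers were higher at that p (*Acta2* and *Cnn1*, both 0.35), at a list median of 0.16, and the summed level of the list ran from 216 to 457 CPM in the breeder diet and from 235 to 614 CPM in the FA diet. Of 6 fibroblast markers 2 were higher (*Dcn*, 0.75, and *Lum*, 0.78) at a list median of 0.55, but without dam 3 none reached the p and the median was 0.02. The part of these cell types in the FA values was not tested.

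**Figure D4:**
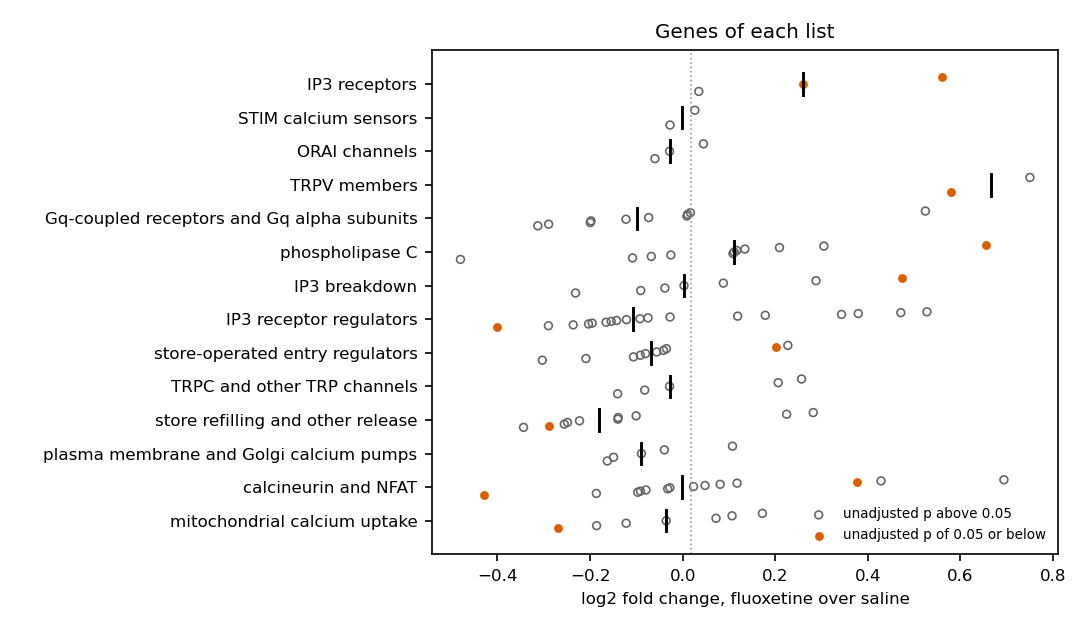
Log2 fold change of fluoxetine over saline for each tested gene of the 4 member families and 10 pathway lists. Filled points reached an unadjusted p of 0.05 or below, black bars are list medians, the dotted line is the median of all genes tested (0.02), and the lists spread to both sides of it.

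The library of FA diet + fluoxetine dam 3 differed from the other 7 dams of its group across the genes tested, with members lying to both sides. Over those genes, its lowest chi-square per degree of freedom against another library of the group was 965, where the other 7 had at most 56.1. The positions of the 10 members are given gene by gene. How many of all genes tested lay outside the range of the other 7 dams was not counted. A position outside that range is therefore not shown to be particular to a member. These positions rest on the TMM factor of 3.04 of this library. *Orai1* was at 11.8 CPM where the others ran from 54.2 to 101 CPM, 0.175 times their median. *Stim2* was at 9.26 CPM against 29.2 to 68.9 CPM (0.189 times), and *Itpr3* at 11.5 CPM against 15.8 to 29.6 CPM (0.533 times). *Itpr2* was 3.68 times and *Trpv4* 3.29 times the median of the others, *Orai2* 1.79 times and *Orai3* 1.25 times. *Itpr1*, *Stim1* and *Trpv6* lay within the range of the other dams. The luminal marker sum of this dam was low and its leukocyte, fibroblast, adipocyte and pericyte sums high, as given above, and their part in these values was not tested.

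**Figure D5:**
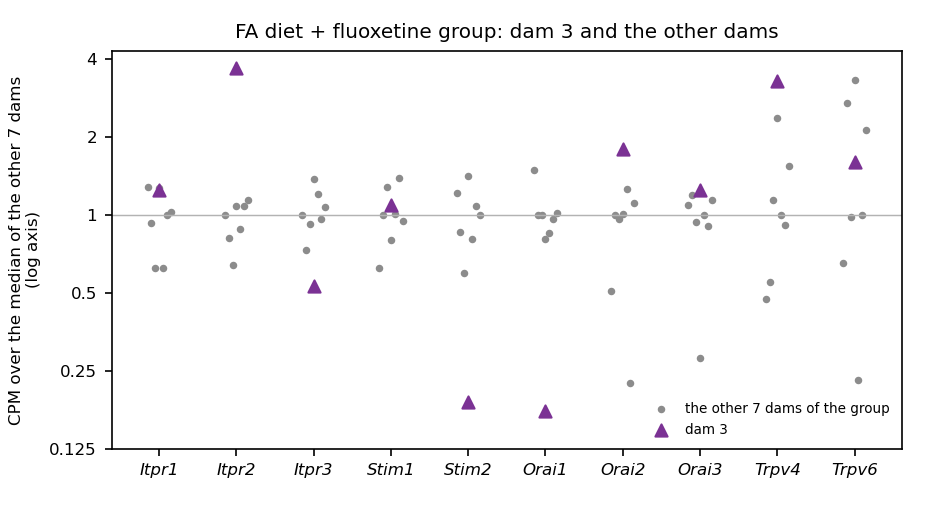
CPM of each gene in the 8 dams of FA diet + fluoxetine, divided by the median of the 7 dams other than dam 3 (log axis). The triangle of dam 3 lies lowest in *Orai1*, *Stim2* and *Itpr3* and highest in *Itpr2*, *Trpv4*, *Orai2* and *Orai3*.

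Across dams the members varied largely on their own. After group means were taken off the log2 CPM of the 31 dams, the pairs furthest from 0 by Spearman's coefficient were *Orai1* with *Trpv4* (-0.47, and -0.52 without dam 3), *Itpr2* with *Orai1* (-0.46, and -0.34), *Itpr1* with *Stim1* (-0.46, and -0.49) and *Stim1* with *Orai3* (-0.41 in both). The sensor and channel with the highest levels, *Stim2* and *Orai1*, had a Spearman coefficient of 0.36 with all dams and of 0.24 without dam 3. By Pearson's coefficient the values of this pair were 0.76 and 0.17, and those of *Itpr2* with *Orai1* were -0.77 and -0.37. All of these values share the libraries and their scaling factors, and they are descriptions only. Genes whose level followed a member most closely over the 31 dams were *Man1a2* and *Nipsnap3b* for *Orai1* (Spearman 0.87 and 0.85), *Rin1* and *Terf2* for *Trpv4* (0.82 and 0.80), *Dmwd* and *Camk1* for *Itpr2* (0.80 and 0.78), *Gcdh* and *Cluh* for *Itpr3* (0.79 and 0.78), *Sort1* and *Cyb561* for *Stim2* (0.77 and 0.76), and *Gpc1* and *Jph2* for *Stim1* (0.75 and 0.71). For *Itpr1* they were an unnamed gene, ENSMUSG00000085037, and *Gm14121* (0.73 and 0.69), and for *Orai3* *Hace1* and *Dhrs4* (both 0.68). For the sparse genes *Orai2* and *Trpv6* they were *Cd86* (0.77) with *Inpp5e* (0.66), and *Septin2* with *Gm5786* (both 0.59), which counts this low make uncertain. All of these genes were picked for their high coefficients, which makes the values high by selection. The size to be met by chance in such a pick was not computed for any member.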

How the data were processed

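Libraries of 31 mammary glands were sequenced in paired ends on a NovaSeq 6000 and grouped here by the sample labels. The study's methods place 8 dams in breeder diet + fluoxetine and 7 in FA diet + fluoxetine, where the labels have 7 and 8. The authors trimmed reads with Trim Galore 0.4.4 to at least 50 bases, aligned them by Hisat2 to the GRCm39 assembly and ran htseq-count in intersection-nonempty mode. The strand option and annotation release are not given in the sources used here. The deposited values are unnormalized read counts for each Ensembl gene ID, with totals per dam of 15412542 to 36000439.

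Symbols, lengths, coordinates and coding sequences came from GENCODE vM39. Tests were run in R 4.3.3 with edgeR 4.0.16: filterByExpr by group (41017 genes removed), TMM, a model of 4 group means with robust quasi-likelihood tests of contrasts, and Benjamini-Hochberg adjustment at the study's FDR of 10%. Fluoxetine and FA log2 fold changes average over the other factor, SE follow from the F statistic, and log2 CPM for correlations carry a prior count of 2. Limits for 0 counts assume 3 counts and cover counting error only. The common dispersion was 0.169. The scripts were tested on simulated data with known changes.

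The 10 members and the gene lists were chosen with earlier results of these data known. Named pathway genes are those at an unadjusted p of 0.05 or below for fluoxetine or FA, at most 5 per list, and for each member the 2 genes of highest Spearman coefficient. A gene that met this rule is not reported here. *Atp2b1*, *Atp2b2*, *Stimate*, *Htr2a*, *Htr2b*, *Htr2c*, *Casr*, *Ephb6* and *Uqcc2* were named after their values were seen. Alternatives were the likelihood ratio test that the study used, DESeq2 1.42.0, no filter, 1 CPM in at least 7 dams, RLE scaling, an additive model, a fit without the 20 most abundant genes, limma 3.58.1 voom with sample quality weights, a block on the animal number, leaving out each dam, and the longest transcript as length. Lists, shares and correlations without FA diet + fluoxetine dam 3, and shares by the longest transcript, were added after seeing the data.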

Additional observations from a re-analysis of the deposited data

Results flagged for a closer look

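In 40 sets of 1 gene and 1 group, the gap between the highest or lowest dam and its neighbour was compared with Dixon's critical value. Chance alone passes that value in about 1 of 20 independent sets of normally distributed values. CPM need not be so distributed and the same dams recur in all 10 genes, so the rate for these sets is not known. The critical value was passed in 4. *Itpr2* in FA diet + fluoxetine dam 3 was at 48.3 CPM, with the next dam at 14.96 CPM. *Itpr2* in breeder diet + saline dam 10 was at 15.1 CPM, with the next dam at 10.7 CPM, so the highest saline dam of that diet stood just below the median of the fluoxetine treated dams (15.5 CPM). *Trpv4* in breeder diet + fluoxetine dam 9 was at 4.70 CPM, with the next dam at 2.05 CPM. *Orai3* in FA diet + fluoxetine dam 5 was lowest, at 1.83 CPM, with the next dam at 5.94 CPM, and the same dam had the highest *Trpv6* value of the series, 1.01 CPM.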

How the results depend on the processing

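No member passed the FDR of 10% in any of the 5 comparisons under any alternative run. At an unadjusted p of 0.05 or below, the fluoxetine count of 3 lay between 1 and 4 when single dams were left out, and was 2 with quality weights and 2 with the animal number as a replicate block. The FA count of 0 became 1 (*Itpr3*) and the interaction count of 0 became 1 (*Trpv4*) only without the dams named above. In the breeder diet the count was 1 (*Itpr2*) in place of 0 with the likelihood ratio test, without a filter, with quality weights and without any of 12 dams, and in the FA diet it was 1 in place of 4 with quality weights (*Trpv6*) and between 1 and 4 without single dams. The ranks of 2 genes changed with the longest transcript. Whether same-numbered dams of different groups were paired is not settled here. Of 28 same-numbered pairs, 12 (42.9%) had deviations with a correlation over 0.1, and the median correlation was 0.079. Of 332 pairs of other numbers, 74 (22.3%) did, and the median was -0.0070. Over all genes tested, 3 passed the FDR for fluoxetine, but 0 with the replicate block, 1 without a filter, 45 by the likelihood ratio test, 70 by DESeq2 and 48 with quality weights. With the replicate block, fluoxetine log2 fold changes turned sign for *Itpr3* (-0.14), *Stim1* (0.067), *Stim2* (-0.24), *Orai2* (-0.23) and *Orai3* (0.062), FA changes for *Itpr2* (-0.024), *Stim2* (0.11) and *Trpv6* (0.29), the interaction for *Itpr2* (-0.079), and breeder diet changes for *Trpv4* (-0.12) and *Trpv6* (-0.96), while *Trpv4* over both diets was 0.42 (unadjusted p = 0.244). With quality weights, signs turned for *Orai1* (0.0097) and *Orai3* (0.013) with fluoxetine, *Itpr2* (-0.056), *Stim2* (0.0048) and *Orai2* (-0.20) with FA, *Itpr2* (-0.21) in the interaction and *Trpv4* (-0.012) in the breeder diet, and with the additive model for *Trpv6* with FA (0.0024). Leaving out single dams gave ranges across 0 for fluoxetine in *Itpr3* (-0.0050 to 0.077), *Stim1* (-0.084 to 0.022), *Stim2* (-0.032 to 0.093), *Orai1* (-0.13 to 0.0093), *Orai2* (-0.062 to 0.14) and *Orai3* (-0.075 to 0.044), for FA in *Itpr1* (-0.057 to 0.024), *Itpr2* (-0.095 to 0.19), *Stim2* (-0.089 to 0.045), *Orai1* (-0.13 to 0.0099), *Orai3* (-0.046 to 0.060), *Trpv4* (-0.26 to 0.10) and *Trpv6* (-0.21 to 0.12), for the interaction in *Itpr2* (-0.37 to 0.20), in the breeder diet for *Itpr3* (-0.094 to 0.034), *Trpv4* (-0.19 to 0.35) and *Trpv6* (-0.16 to 0.31), and in the FA diet for *Itpr3* (-0.0033 to 0.17). The causes were not tested. *Itpr1*, *Itpr2*, *Trpv4* and *Trpv6* kept their sign for fluoxetine over both diets under every alternative that gave a value. *Trpv6* was removed by the filter at 1 CPM, and low counts limit it and *Orai2*.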
